A study of Mus musculus with 20 samples.

Results

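The 7 mature arms of miR-99a, miR-100 and miR-125b were followed through the conversion of mouse embryonic stem cells into epiblast stem cells. They are mmu-miR-99a-5p and mmu-miR-99a-3p, mmu-miR-100-5p and mmu-miR-100-3p, and mmu-miR-125b-5p, mmu-miR-125b-1-3p and mmu-miR-125b-2-3p (mmu, for mouse, is dropped below), out of 1063 microRNAs (miRNAs) listed in the count tables of both cell lines. They were taken by name, not by level. The cells were a male line, E14, and a female line, PGK. At day 0 both lines grew in 2i, a medium that holds embryonic stem cells in the naive state of pluripotency. They were then moved to fibronectin-coated dishes in N2B27 containing Activin A and Fgf2, which favours the primed state of epiblast stem cells, and RNA was sampled at day 4, day 10, days 19 to 23 and days 27 to 30 (called late here). Every stage of each line has 2 libraries, 1 from each of 2 differentiation experiments that the labels number 2 and 3, which makes 20 small RNA libraries in 10 groups. With only 1 line of each sex, an effect of sex and one of the line cannot be told apart.

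Totals ran from 7112398 to 18031067 counts per library, and a count of 0 allows up to 3 counts, which was 0.213 to 0.347 CPM depending on the library. Only counting error enters these floors and the intervals given for shares. CPM is a count scaled to a common library size, here with edgeR's TMM factors. Changes are log2 ± SE from edgeR's quasi-likelihood test with Benjamini-Hochberg adjustment over the 813 miRNAs that passed a filter on low counts, with 0.05 as the threshold. P-values measure the spread between the differentiation experiments. In both lines the day 0 library of experiment 3 carries a cell-type label of differentiating cells although its title and day label give day 0, and it was kept with day 0. The state of the cells was checked with marker miRNAs. All 5 listed miR-302 and miR-367 arms, which mark primed cells, rose at every stage in both lines, and their summed level went from 160.8 to 556.7 CPM at day 0 to at least 8707 CPM in every later library. In late cells 4 of 4 arms of the naive miR-290 cluster present in the tables fell in the female line and 3 of 4 in the male line. Of all tested miRNAs, 19.4% (female) and 21.2% (male) were lower late.

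miRNAs are cut as pairs of arms from hairpin precursors, and the arm that is kept guides Argonaute to messenger RNAs that match its seed, bases 2 to 8 from the 5′ end. The miR-99/100 family is known for targets such as Mtor. The miR-125 family is the vertebrate counterpart of lin-4, a developmental timing gene of worms, and represses Lin28, whose protein blocks the maturation of let-7 precursors. Vertebrate genomes keep members of both families together with a let-7 gene in several copies of an ancient cluster, and the miR-99a, miR-100 and miR-125b genes are known to be active in many differentiated tissues.

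The mature sequences show which counts can be assigned to 1 gene. They are RefSeq entries on GRCm38.p6, found for all 7 arms, and capitals mark the seed.
miR-99a-5p: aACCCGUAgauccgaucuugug
miR-100-5p: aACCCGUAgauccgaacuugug
miR-125b-5p: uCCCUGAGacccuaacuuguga
miR-99a-3p: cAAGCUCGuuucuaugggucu
miR-100-3p: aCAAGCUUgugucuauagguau
miR-125b-1-3p: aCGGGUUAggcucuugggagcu
miR-125b-2-3p: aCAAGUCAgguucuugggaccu
Counted from the 5′ end of miR-99a-5p, miR-100-5p differs from it by the single substitution U16A, so both share the seed ACCCGUA and their counts rest on 1 base. The 3p arms of the pair differ in their seeds. miR-125b-5p is cut from both Mir125b-1 and Mir125b-2 and cannot be assigned to either, whereas the 3p arms of these genes differ in sequence and report on each gene separately.

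On GRCm38, Mir99a and Mir125b-2 lie on chromosome 16 in introns of the noncoding host gene Mir99ahg, with miR-99a-5p at chr16:77598940-77598961 and miR-125b-2-3p at chr16:77646318-77646339, both on the plus strand. Mirlet7c-1 starts 0.73 kb after miR-99a and Mir125b-2 starts 47.34 kb after it. Mir100 and Mir125b-1 lie on chromosome 9 in the noncoding genes 3110039I08Rik and Gm49317, with miR-100-5p at chr9:41531437-41531458 in introns of both and miR-125b-1-3p at chr9:41581980-41582001. Mir125b-1 also overlaps an exon of Gm28119. The 3p arm of Mirlet7a-2 starts 5.34 kb after miR-100 and Mir125b-1 starts 50.5 kb after it. The set therefore reads out a chromosome 16 cluster through both miR-99a arms and miR-125b-2-3p, and a chromosome 9 cluster through both miR-100 arms and miR-125b-1-3p.

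Together the 7 arms were rare at day 0 and more abundant late, yet stayed a small part of the miRNA pool throughout. At day 0 they made up 0.00188% and 0.0043% of the counts in the female libraries of experiments 2 and 3, and 0.000814% and 0.0039% in the male ones. Late female libraries reached 0.0715% and 0.0753%, late male ones 0.0315% and 0.1105%. All 4 late libraries lay above all 4 day 0 libraries.

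miR-125b-5p, the guide arm shared by both clusters, had the most counts of all members in all 4 late libraries. How reads that match its 2 genes were counted is not given. If they were counted once per gene, its level would be too high against arms of a single gene, and this rank may not hold. Other comparisons of its level with other arms share this limit. In the female line miR-125b-5p was at 12.6 and 13.3 CPM at day 0 in experiments 2 and 3, at 20.8 and 53.1 at day 4, 22.7 and 85.8 at day 10, 61.5 and 303.8 at days 23 and 21, and 358.7 and 361.8 at day 29. In the male line it was at 3.29 and 23.1 CPM at day 0, 9.54 and 15.1 at day 4, 85.5 and 95.2 at day 10, 58.1 and 247.2 at days 21 and 19, and 104.6 and 436.5 at days 27 and 30. Late libraries lay above day 0 libraries in both lines without overlap, while the male day 0 libraries differed 7.04-fold from each other. By the late stage it rose by a log2 change of 4.80 ± 1.12 in the female line (edgeR adjusted p = 0.00279) and 4.35 ± 1.09 in the male line (adjusted p = 0.00641).

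miR-125b-1-3p, the passenger arm of the chromosome 9 copy, was the first member called higher in the female line, at day 4, and in the male line was first called at day 10 together with miR-125b-5p. Its female levels in experiments 2 and 3 were 2.71 and 2.5 CPM at day 0, 20.2 and 20.5 at day 4, 17.6 and 39.9 at day 10, 35.7 and 113.3 at days 23 and 21, and 110.2 and 139.3 at day 29. In male cells they were 2.47 and 5.55 CPM at day 0, 7.87 and 4.56 at day 4, 77.8 and 39.4 at day 10, 23.2 and 94.9 at days 21 and 19, and 46.4 and 165.3 at days 27 and 30. The female libraries had separated from day 0 by day 4, and the male day 4 libraries still overlapped day 0. The late changes were 5.58 ± 0.90 in the female line (adjusted p = 0.000178) and 4.71 ± 0.86 in the male line (adjusted p = 0.00076).

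miR-125b-2-3p, the passenger arm of the chromosome 16 copy, was lower than its chromosome 9 counterpart in every library. It was at 0.387 and 1.31 CPM at day 0 in the female line, 1.5 and 0.451 at day 4, 0.872 and 1.82 at day 10, 0.435 and 13.1 at days 23 and 21, and 11.5 and 14.1 at day 29. Male levels were 0.0914 and 1.73 CPM at day 0, 1.48 and 2.67 at day 4, 2.77 and 2.25 at day 10, 0.94 and 2.64 at days 21 and 19, and 2.09 and 25.7 at days 27 and 30. The high values came late, and in the male line from 1 of 2 late libraries. Its late changes were 3.92 ± 1.41 (female, adjusted p = 0.0351) and 3.87 ± 1.37 (male, adjusted p = 0.0346). The female call was lost without any 1 of the 4 libraries behind it, with changes of 3.3 to 4.89 and adjusted p of 0.0688 to 0.182. The male call was lost without the day 0 library of experiment 2 (0.18) and without the late library of experiment 3 (0.592).

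miR-99a-5p, the guide arm of the chromosome 16 cluster, held at most 1.77 CPM at days 4 and 10. Female libraries held 0.0967 and 0.544 CPM at day 0 (1 and 5 counts), 1.27 and 1.015 at day 4, 0.174 and 1.39 at day 10, 3.59 and 25.6 at days 23 and 21, and 40.7 and 39.1 at day 29. Male libraries held 0.365 and 4.69 CPM at day 0, 1.77 and 1.22 at day 4, 0.996 and 1.57 at day 10, 1.775 and 4.75 at days 21 and 19, and 7.49 and 61.9 at days 27 and 30. The male day 0 library of experiment 3 was thus as high as the male library of day 19. By the late stage miR-99a-5p rose by 6.95 ± 1.48 in the female line (adjusted p = 0.00157) and 3.75 ± 1.19 in the male line (adjusted p = 0.0218).

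miR-99a-3p, the passenger arm of the same hairpin, reached 10 counts in 4 of 20 libraries and was at 0 in 6. In the female line it had 0 counts in both day 0 and both day 4 libraries, 0 and 3 counts at day 10, 1 and 15 at days 23 and 21, and 15 and 31 at day 29. Its late level there was at least 15.2-fold higher than day 0, taking 3 counts over both day 0 libraries as the limit (adjusted p = 0.0159). In the male line it had 1 and 2 counts at day 0 and 2 and 85 counts at days 27 and 30, a ratio of 27.9 with a 95% counting interval of 9.23 to 138.0 (adjusted p = 0.0268). Nearly all of the late male counts came from 1 library. Because this arm passed the filter only through its later libraries, no support is drawn from its change. Its female late call was lost without either day 0 library (adjusted p = 0.0749 and 0.0775) or the late library of experiment 3 (0.0549), and its male one without either day 0 library (0.125 and 0.11) or the late library of experiment 3 (0.883).

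miR-100-5p, the guide arm of the chromosome 9 hairpin, was already above miR-99a-5p at day 0 in all 4 libraries. It was at 6.48 and 33.0 CPM at day 0 in the female line, 2.20 and 19.1 at day 4, 9.76 and 27.6 at day 10, 96.3 and 68.9 at days 23 and 21, and 155.8 and 74.0 at day 29. Male levels were 3.75 and 8.58 CPM at day 0, 2.66 and 19.7 at day 4, 18.1 and 34.7 at day 10, 54.9 and 43.8 at days 21 and 19, and 74.5 and 126.6 at days 27 and 30. Libraries from day 19 on lay above day 0 in both lines. In the male line it rose by 4.02 ± 1.09 (adjusted p = 0.00947), and in the female line its log2 change was 2.54 ± 1.02 and did not pass (adjusted p = 0.0546). With the experiment as a block the female late change was 3.08 and passed (adjusted p = 0.00981), as it did with DESeq2 at 2.51 (adjusted p = 0.0221).

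miR-100-3p, its passenger arm, did not pass the filter. It had at most 6 counts in any library and 0 in 6 of 20, and its highest level was 0.452 CPM. Without the filter, of its changes against day 0 only that of the male line at days 19 to 21 passed (0 counts at day 0 against 10 later, adjusted p = 0.0273), which is at least 3.62-fold higher against 3 counts over the day 0 libraries.

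**Figure D1:**
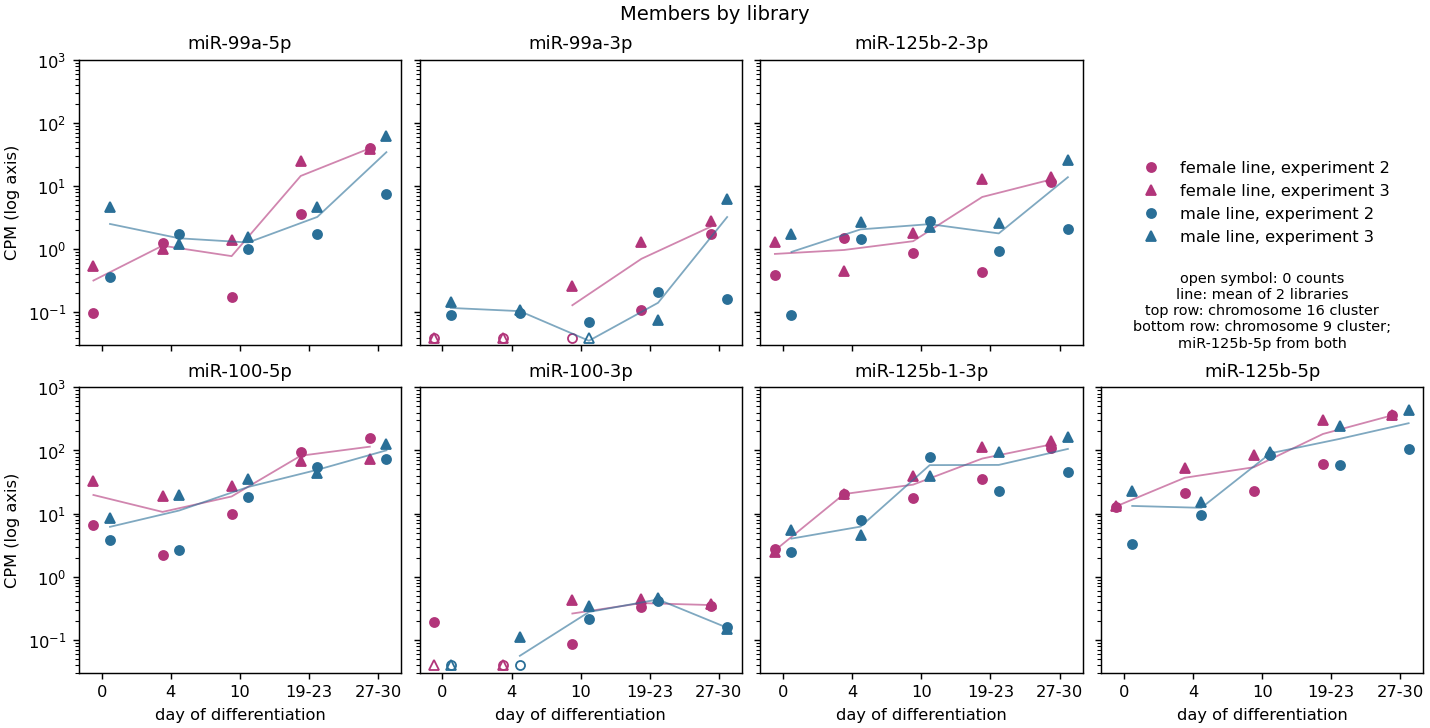
Level of each of the 7 arms in every library, in TMM-scaled CPM on a log axis, by day of differentiation. Circles are experiment 2, triangles experiment 3, open symbols 0 counts, and lines join means of 2 libraries and break where a mean is 0. miR-125b-5p climbs from 3.29 to 23.1 CPM at day 0 to 104.6 to 436.5 CPM late, and the 3 chromosome 16 arms in the top row have 1 late male library far above the other.

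Counted over the 5 tested members other than miR-99a-3p, calls against day 0 accumulated over the course in both lines, and none fell at any stage. At day 4, 1 of 5 was higher in the female line and 0 of 5 in the male line, where 24.5% and 25.1% of all tested miRNAs were higher and 14.6% and 18.3% lower. DESeq2 also called 0 members at day 4 in the male line, and none was under 0.05 unadjusted. At day 10 the counts were 1 and 2, against 21.3% and 16.7% of all miRNAs. At days 19 to 23, 3 of 5 were higher in each line, against 21.2% (female) and 15.9% (male). In late cells 4 of 5 were higher in the female line and 5 of 5 in the male line, against 24.1% and 19.6%. miR-99a-3p was also called higher late in both lines and at no earlier stage. Median log2 changes over the 5 members were 1.52, 1.29, 3.82 and 4.80 at the successive female stages and 0.63, 2.09, 2.99 and 4.02 at the male ones. The median over all tested miRNAs stayed between -0.0384 and 0.0887 in these comparisons. Within a line, each stage is set against the same pair of day 0 libraries, and the counts are not independent of each other.

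Before day 19 only miR-125b-1-3p and, in the male line, miR-125b-5p were called. In female cells it was higher at day 4 by 2.96 ± 0.82 (adjusted p = 0.01) and at day 10 by 3.46 ± 0.83 (adjusted p = 0.00384). In male cells its change at day 4 was 0.63 ± 0.77 (adjusted p = 0.527), and it was higher at day 10 by 3.86 ± 0.83 (adjusted p = 0.00289). The female day 4 call was lost without either day 0 library (adjusted p = 0.0678 and 0.0961). The line difference in this early change was not called, with an interaction of 2.34 ± 1.10 at day 4 (adjusted p = 0.342). miR-125b-5p was called in the male line at day 10, by 2.77 ± 1.02 (adjusted p = 0.0471), a call that RLE scaling (0.0515), total-count scaling (0.0561) and a fit of the line alone (0.066) each lost, as did leaving out the male day 0 library of experiment 2 (0.258) or either male day 10 library (0.101 and 0.147). Its female change at day 10 was 2.07 ± 1.0 (adjusted p = 0.112), and with the experiment as a block 1.68 and called (adjusted p = 0.0498).

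At days 19 to 23 both lines had miR-125b-5p and miR-125b-1-3p called higher. The female miR-125b-5p call was lost without either day 0 library (changes of 3.83 and 3.76) or the day 21 library (2.25). The male miR-125b-5p call was lost without the day 0 library of experiment 2 (2.73) or the day 19 library (1.91). The male miR-125b-1-3p call was lost without the day 19 library (2.32). The third call was miR-99a-5p in the female line, at 5.50 ± 1.43 (adjusted p = 0.00623), and miR-100-5p in the male line, at 2.99 ± 1.04 (adjusted p = 0.0372). That male miR-100-5p call was lost without any 1 of its 4 libraries, with changes of 2.51 to 3.6 and adjusted p of 0.082 to 0.206. The female miR-99a-5p call was lost without the day 0 library of experiment 2 (0.0613) or the day 21 library (0.0847). The female change of miR-100-5p was 2.07 ± 1.0 (adjusted p = 0.107), and 2.51 with the block (adjusted p = 0.0266). The male change of miR-99a-5p was 0.36 ± 1.12 (adjusted p = 0.844). Tested directly, miR-99a-5p differed between lines at this stage by 2.14 ± 1.12 (adjusted p = 0.666).

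Between successive later stages only 1 change of a member passed, that of miR-125b-1-3p in male cells from day 4 to day 10, by 3.23 ± 0.80 (adjusted p = 0.0275), a step at which 4.55% of all tested miRNAs were higher. miR-125b-5p changed by 2.87 ± 1.03 over the same step (adjusted p = 0.0984) and passed with the block, at 3.0 (adjusted p = 0.0116). The call of miR-125b-1-3p was lost in a fit of the male line alone (3.49, adjusted p = 0.0539) and without either library of male day 4 or without that of experiment 2 at day 10. No member passed between day 10 and days 19 to 23 or from there to the late stage, by edgeR or by DESeq2. Of the 5 members other than miR-99a-3p, 2 and 0 were at unadjusted p under 0.05 for female cells, and 0 and 2 for male cells. The share of all miRNAs at this unadjusted threshold is not given here, and nothing is read from these counts. Across all 813 tested miRNAs these steps had 0% higher calls in either line, and from day 10 to days 19 to 23 0.369% (female) and 0.246% (male) were lower. The medians of all miRNAs between day 4 and day 10 were -0.27 (female) and -0.263 (male).

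**Figure D2:**
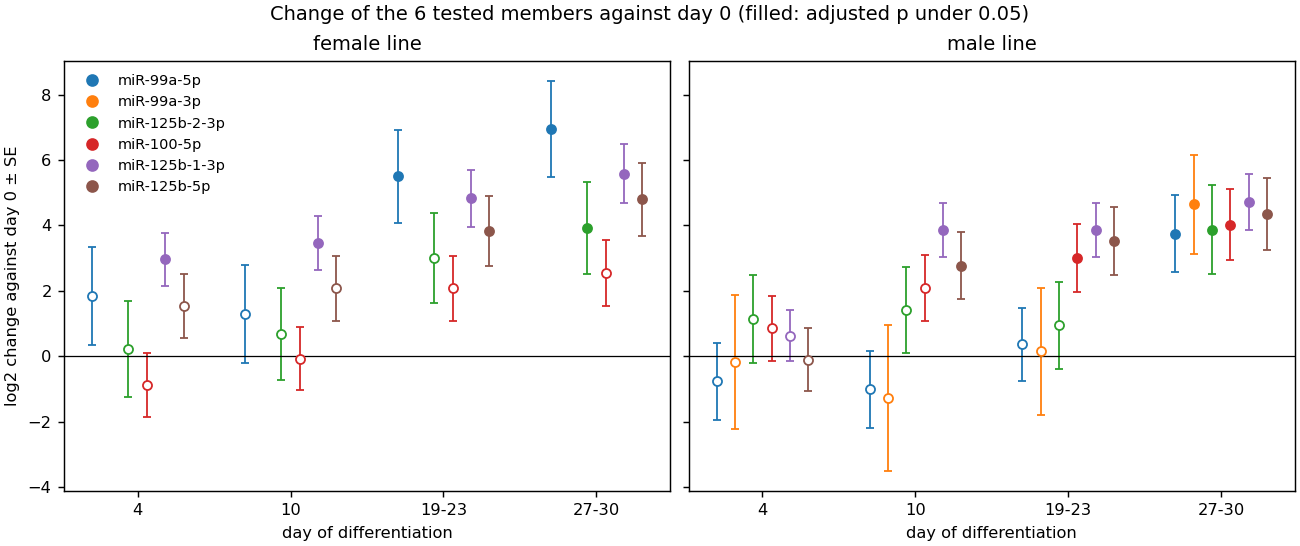
Log2 change against day 0 (± SE, edgeR) of the 6 tested arms at each stage, in the female (left) and male (right) line. Filled points have an adjusted p under 0.05. miR-99a-3p is left out of the female panel because its day 0 libraries held 0 counts. Late points lie between 2.54 and 6.95 in the female panel and between 3.75 and 4.71 in the male panel.

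Many of these calls rest on single libraries, in both clusters. Counts of members without a library are over all 6 tested, miR-99a-3p included. Without the male late library of experiment 3, 2 members were called late in the male line, miR-100-5p and miR-125b-1-3p, and miR-99a-5p had a change of 1.53 (adjusted p = 0.371), miR-99a-3p 0.38 (0.883), miR-125b-2-3p 1.13 (0.592) and miR-125b-5p 2.96 (0.0595). Without the male day 0 library of experiment 2, only miR-125b-1-3p was called, with miR-100-5p at 3.52 (0.0797), miR-125b-5p at 3.52 (0.0542) and miR-99a-5p at 2.86 (0.124), and without that of experiment 3, whose cell-type label is at odds with its day, 5 were. In the female line, 3 members were called late without the day 0 library of experiment 2 or without the late library of experiment 3, and leaving out the day 0 library of experiment 3 gave 4. At days 19 to 23, 1 female member was called without the library of experiment 3 and likewise without the day 0 library of experiment 2. For the male line, 0 were called without the day 19 library of experiment 3 and 1 without the day 0 library of experiment 2. Each such fit leaves a group with 1 library, whose spread is then taken from the other groups. Calls of other named miRNAs were lost in such fits too. The share of all tested miRNAs called in them is not given here, so a lost call is not read as particular to the members.

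The 2 experiments were therefore also read separately, late over day 0, each fold from a pair of single libraries with no test. miR-125b-5p was 28.5-fold and 27.3-fold higher in the female line in experiments 2 and 3, and 31.8-fold and 18.9-fold in the male line. miR-125b-1-3p was 40.7-fold and 55.7-fold higher in female cells and 18.8-fold and 29.8-fold in male cells. miR-100-5p was 24.0-fold and 2.25-fold higher in the female line, and 19.9-fold and 14.8-fold in the male line. For miR-99a-5p the male folds were 20.5 and 13.2, although the levels behind them differed 12.8-fold at day 0 and 8.26-fold late, with experiment 3 higher at both. In each of these pairs the late library was higher, and the female miR-100-5p pair of experiment 3 had the smallest fold.

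Which arms differed most between the experiments changed with the stage. In late male cells the library of experiment 3 exceeded that of experiment 2 by 8.26-fold for miR-99a-5p, 39.3-fold for miR-99a-3p and 12.3-fold for miR-125b-2-3p, but by 1.70-fold for miR-100-5p and 3.56-fold for miR-125b-1-3p. At female days 21 and 23 the library of experiment 3 was higher by 7.12-fold, 12.0-fold and 30.1-fold for the same 3 arms, with miR-100-5p at 0.715-fold and miR-125b-1-3p at 3.18-fold. At male day 0 miR-99a-5p was 12.8-fold and miR-125b-2-3p 18.9-fold higher in experiment 3 (the latter from 24 counts against 1), and miR-100-5p 2.29-fold. In late female cells, both of day 29, the 2 libraries lay within 1.64-fold of each other for these 3 arms. At day 4 the order was the other way round, with miR-100-5p higher in experiment 3 by 8.68-fold in female and 7.41-fold in male cells and miR-99a-5p at 0.798-fold and 0.691-fold. At male days 19 and 21 miR-125b-1-3p differed by 4.09-fold, against 2.68-fold for miR-99a-5p and 2.81-fold for miR-125b-2-3p. Sampling days also differed, being 23 and 21 in the female pair and 27 and 30 in the late male pair.

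Female and male cells were compared at each stage and over all of them. No member differed between the lines at any of 5 stages, averaged over the stages, or in its change from day 0 to day 4 or to the late stage, with 0 calls by edgeR and 0 by DESeq2, which gave no adjusted p for some members. At unadjusted p under 0.05 there was 1 member at day 0 and 1 at day 4, and the share of all miRNAs at that threshold is not given here. At day 0, 6.64% of all tested miRNAs had higher and 2.09% lower levels in female cells, at day 4 4.67% and 0.369%, and at each later stage 0%. Averaged over stages, 13.9% were higher and 4.55% lower, and the changes to the late stage differed for 0.369%, all lower. At day 0 miR-99a-5p was lower in the female line by 2.99 ± 1.41 (adjusted p = 0.262), a difference set by the male library of experiment 3 with 65 of the 69 male counts. At day 4 the female libraries of miR-125b-1-3p lay above the male ones without overlap, with 1.71 ± 0.77 (adjusted p = 0.218). In late cells the differences ran from -0.51 for miR-99a-3p to 0.41 ± 0.95 for miR-125b-5p. Their SEs at that stage ran from 0.73 to 1.18, and line differences well above these SEs could also be missed. At day 0 even the 2.99 ± 1.41 of miR-99a-5p was not called. The median over all miRNAs in the late comparison was 0.175 with TMM and -0.05 with RLE scaling, which is of the size of the late differences.

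Ratios within a library do not depend on scaling, and they compare arms of the clusters with each other. The share of miR-125b-2-3p in both miR-125b 3p arms ran from 1.20% to 36.9% over the 20 libraries, with a median of 6.15%. It sets the 3p arm of the chromosome 16 copy against that of the chromosome 9 copy. In late cells it was 9.45% (95% exact interval 7.76 to 11.4) and 9.20% (7.87 to 10.7) in female experiments 2 and 3, and 4.32% (2.84 to 6.26) and 13.5% (12.2 to 14.8) in male ones. At day 0 it was 12.5% and 34.3% for the female libraries of experiments 2 and 3 and 3.57% and 23.8% for the male ones, from 28 to 101 counts per library. The chromosome 9 arm made up the majority of the 3p counts in every library.

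The share of miR-99a-5p in the sum of miR-99a-5p and miR-100-5p, which differ by 1 base, ran from 1.47% to 40.0% with a median of 7.37%. At day 0 it was 1.47% (0.0372 to 7.92) and 1.62% (0.529 to 3.75) in the female line, against 8.89% (2.48 to 21.2) and 35.3% (28.4 to 42.7) in the male line. In late cells it was 20.7% (18.8 to 22.7) and 34.6% (31.9 to 37.3) for female libraries, and 9.14% (7.44 to 11.1) and 32.8% (31.0 to 34.7) for male libraries. The late female shares lay above both female day 0 shares, whereas the male shares of both stages overlapped. This share and that of miR-125b-2-3p did not go together in every library. At female day 0 of experiment 3, miR-125b-2-3p had 34.3% and miR-99a-5p 1.62%. At male day 4 they had 15.8% and 40.0% in experiment 2, and 36.9% and 5.85% in experiment 3. The share of a single arm is therefore not the share of its cluster.

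**Figure D3:**
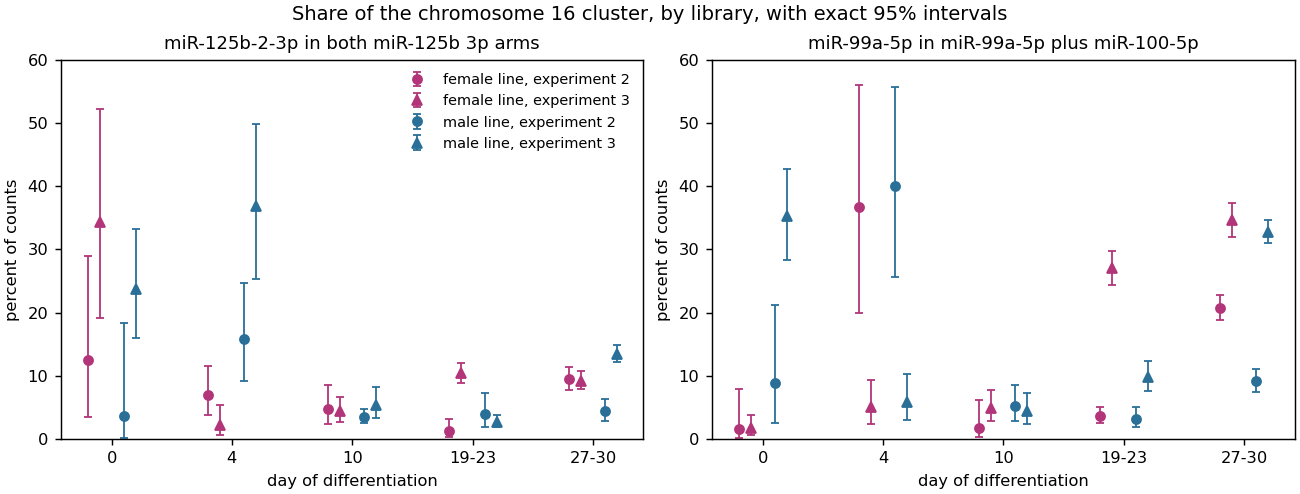
Share of a single arm of the chromosome 16 cluster in each library, in percent with exact 95% intervals: miR-125b-2-3p in both miR-125b 3p arms (left) and miR-99a-5p in miR-99a-5p plus miR-100-5p (right), by day of differentiation. Shares range from 1.20% to 36.9% (left) and from 1.47% to 40.0% (right), with the widest intervals at days 0 and 4, where counts are low.

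Of 16 exact permutation tests on 8 such ratios, two-sided, between lines within stages and between later stages and day 0 within lines, none passed. The smallest p were 0.0563 and 0.0588 (both 0.381 adjusted by Benjamini-Hochberg over the 16), in a design that could reach 0.00049. With libraries exchanged only within an experiment, a test added after seeing the data, none passed either, and the same ratios gave 0.0736 and 0.0544 (both 0.393 adjusted). The first was for miR-125b-5p to miR-99a-5p plus miR-100-5p, whose log2 ratio averaged 1.15 in later libraries and 0.02 at day 0. The other was for miR-125b-1-3p to miR-125b-2-3p, at 3.90 later and 2.36 at day 0. The ratio of miR-100-5p to miR-99a-5p differed by 0.54 between lines (p = 0.466) and by -0.76 between later stages and day 0 (p = 0.453), both by the exact permutation test.

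The 5p arm held most counts of miR-99a and miR-100 in every library. For miR-125b, whose 5p counts cannot be split between its genes, it held most counts as tabulated except in the female day 4 library of experiment 2. If reads of miR-125b-5p were counted once for each of its 2 genes, its share would be lower. The 3p arms would then hold most counts in further libraries. The RefSeq hairpins show how the arms are placed, with both mature arms in capitals.
Mir99a, chr16:77598936-77599000: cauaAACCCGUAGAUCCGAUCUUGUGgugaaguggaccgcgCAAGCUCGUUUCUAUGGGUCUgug
Mir100, chr9:41531425-41531504: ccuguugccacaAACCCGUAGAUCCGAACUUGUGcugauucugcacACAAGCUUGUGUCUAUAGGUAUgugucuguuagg
Mir125b-1, chr9:41581926-41582002: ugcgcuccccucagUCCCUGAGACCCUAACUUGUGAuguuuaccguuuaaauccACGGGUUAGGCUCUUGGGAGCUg
The 3p arm took 0% to 2.90% of miR-100 counts and 0% to 20.0% of miR-99a counts, where the high shares come from libraries with few counts. The 3p arms of miR-125b took 19.8% to 51.1% of all miR-125b counts as tabulated, with a median of 30.4%, under the same limit. Female shares of miR-125b 3p arms averaged 21.05% ± 1.77 (SD, n = 2) at day 0, 39.7% ± 16.1 at day 4 and 27.55% ± 3.18 late, and male shares 33.85% ± 14.1, 40.9% ± 12.2 and 31.05% ± 0.919. The log2 ratio of the 5p to the 3p arms of miR-125b differed by 0.19 between lines (p = 0.43) and by -0.53 between later stages and day 0 (p = 0.11), both by the exact permutation test.

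Each cluster also holds a let-7 gene, and the let-7 arms are given as the other products of the same host genes. let-7 miRNAs are known for repressing Lin28 and growth genes in differentiated cells. let-7c-1-3p, made only by the chromosome 16 gene, was at 0 in 12 of 20 libraries. In late cells it had 19 and 27 counts in the female line, 2.19 and 2.46 CPM, and 2 and 32 counts in the male line, 0.161 and 2.39 CPM. It rose in the female line to at least 15.2-fold its day 0 level, where both libraries had 0 counts (adjusted p = 0.0173). This call was lost without either day 0 library (0.0766 and 0.0779) and without the late library of experiment 3 (0.0515). This arm reached 10 counts in 3 libraries, all late, so it too passed the filter only where it was high, and no support is drawn from its change. The male ratio of 34 to 3 counts was 10.9, with a counting interval of 3.42 to 55.4 (adjusted p = 0.0954, and 0.0454 without the late library of experiment 2). The male late library with the high let-7c-1-3p count was the one with high miR-99a-5p. let-7a-2-3p, from the chromosome 9 gene, had at most 2 counts in any library and did not pass the filter.

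Against day 0, neither let-7a-5p nor let-7c-5p, the let-7 guide arms, was called higher at any stage with TMM scaling. let-7a-5p, which several genes encode, fell at all 4 stages in both lines, from 5201 ± 600.1 to 282.4 ± 43.8 CPM (SD, n = 2) in late female cells, a log2 change of -4.20 ± 0.44 (adjusted p = 5.01e-06). In the male line it went from 1904 ± 498.9 to 157.4 ± 57.7 CPM, a change of -3.60 ± 0.42 (adjusted p = 1.97e-05). let-7c-5p, made by Mirlet7c-1 and by Mirlet7c-2 on chromosome 15, fell by the late stage in the female line, from 1550 ± 116.7 to 394.5 ± 18.2 CPM (change -1.97 ± 0.64, adjusted p = 0.0219). Its male level was 196.2 ± 45.7 CPM at day 0 and 379.4 ± 258.4 late, with a change of 0.95 ± 0.63 (adjusted p = 0.243), which passed with total-count scaling (1.60, adjusted p = 0.0444). The female late call was lost without the day 0 library of experiment 2 (adjusted p = 0.0654) and without either late library (0.0919 and 0.0877). From day 10 to the late stage let-7c-5p went from 143.6 and 85.15 to 407.4 and 381.6 CPM in female experiments 2 and 3. In the male ones it went from 583.6 and 119.9 to 196.7 and 562.2 CPM, with experiment 3 the higher late, as for miR-99a-5p. Late cells were not tested against day 10. At day 0 let-7c-5p was higher in the female line by 2.98 ± 0.67 (adjusted p = 0.00802) and let-7a-5p by 1.45 ± 0.39 (adjusted p = 0.027). Of the 4 let-7 arms listed, 3 were tested. In late female cells 1 was higher and 2 were lower, and in late male cells 0 and 1. The 1 higher was let-7c-1-3p, which passed the filter only where it was high, and no support is drawn from it. Of all tested miRNAs, 24.1% were higher and 19.4% lower in late female cells, and 19.6% and 21.2% in late male cells.

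**Figure D4:**
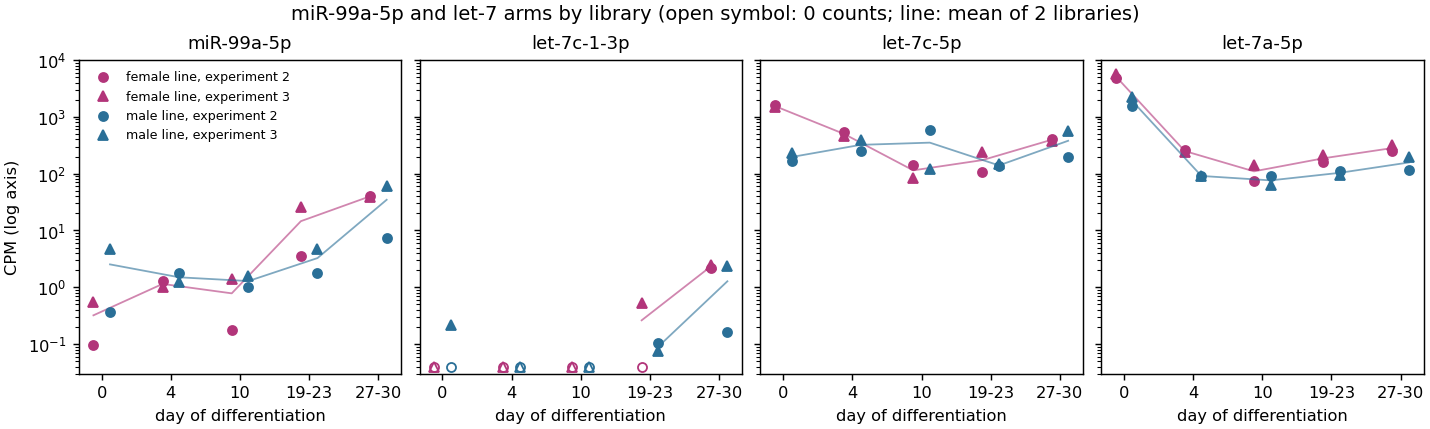
TMM-scaled CPM on a log axis of miR-99a-5p and of 3 let-7 arms in every library, by day of differentiation. Symbols are as in the plot of the members, with open symbols for 0 counts and lines for the mean of 2 libraries. let-7c-1-3p, from the gene next to miR-99a, is at 0 in 12 libraries and reaches 2.46 CPM late, and let-7a-5p falls from 5201 to 282.4 CPM (female means) and from 1904 to 157.4 CPM (male means).

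The same seeds are carried by more abundant miRNAs in these cells. The 3 others in both tables with a seed of miR-99a-5p, miR-100-5p or miR-125b-5p are shown for comparison.
miR-99b-5p: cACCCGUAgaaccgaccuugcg
miR-125a-5p: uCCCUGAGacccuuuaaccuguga
miR-351-5p: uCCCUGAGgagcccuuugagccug
miR-99b and miR-125a lie with let-7e in Spaca6 on chromosome 17, the third copy of the cluster, and miR-351 is X-linked. miR-99b-5p was at 4977 ± 2617 CPM at female day 0 and 20860 ± 5779 late, and at 3808 ± 1177 and 21580 ± 7157 CPM in the male line (SD, n = 2). miR-99a-5p and miR-100-5p together made up 0.0423% to 1.13% of the counts with the ACCCGUA seed. miR-125a-5p rose from 2253 ± 411.4 to 8085 ± 758.5 CPM in the female line and from 1610 ± 206.5 to 7737 ± 70.1 in the male line. miR-125b-5p made up 0.187% to 5.31% of the sum of miR-125a-5p and miR-125b-5p, with means of 0.578% ± 0.0834 at female day 0 and 4.28% ± 0.41 late, and 0.874% ± 0.971 and 3.33% ± 2.81 in the male line. These shares of miR-125b-5p would be lower if its reads were counted once for each of its genes.

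Most, not all, arms of the chromosome 17 cluster were called higher. Of its 6 arms, 1, 4, 4 and 4 were higher at the successive female stages and 4, 4, 4 and 5 at the male ones. Of all tested miRNAs, 24.5%, 21.3%, 21.2% and 24.1% were higher at these female stages. The male shares were 25.1%, 16.7%, 15.9% and 19.6%. At day 4 both let-7e arms were lower in the female line and let-7e-5p in the male line, where 14.6% and 18.3% of all tested miRNAs were lower. None of the 6 arms was lower later. In late female cells let-7e-5p was at 0.05 (adjusted p = 0.922) and let-7e-3p at 0.32 (0.57). Late changes of miR-99b-5p were 2.07 ± 0.44 (female, adjusted p = 0.00158) and 2.5 ± 0.45 (male, adjusted p = 0.000666), and those of miR-125a-5p 1.84 ± 0.31 (adjusted p = 0.00021) and 2.26 ± 0.31 (adjusted p = 6.12e-05). The median late change over the 6 arms was 1.71 in female and 2.02 in male cells, against 4.80 and 4.02 over the 5 members without miR-99a-3p; the difference between these medians was not tested. miR-351-5p differed between the lines at day 0, at 3806 ± 574.1 CPM in female and 403.9 ± 282.4 CPM in male cells (difference 3.24 ± 0.49, adjusted p = 0.00055). It rose by the late stage in the male line by 2.91 ± 0.48 (adjusted p = 0.00035), and its female change was -0.63 ± 0.45 (adjusted p = 0.275).

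Likeness of pattern was measured by Pearson's r of TMM log2 CPM over the 20 libraries, among 420 other miRNAs with a group mean of 50 CPM or more. The libraries share stages, so r describes these libraries and was not tested. For miR-99a-5p the highest values were those of miR-199a-3p (0.881), miR-199b-3p (0.879) and miR-199a-5p (0.856). miR-199a-3p and miR-199b-3p kept nearly the same proportion of counts in all 20 libraries, and are not read as separate likenesses. Their counts were 248 and 121 at female day 0 of experiment 2, and 8859 and 4281 in late male cells of experiment 3. For miR-100-5p they were miR-345-5p (0.836), miR-674-3p (0.788) and miR-24-2-5p (0.772). For miR-125b-5p they were miR-674-3p (0.829), miR-181b-5p (0.819) and miR-3099-3p (0.785). Among the members themselves, r was 0.94 between miR-125b-5p and miR-125b-1-3p and 0.79 between miR-125b-5p and miR-125b-2-3p. Across clusters it was 0.70 between miR-99a-5p and miR-100-5p, and within chromosome 16 it was 0.86 between miR-99a-5p and miR-125b-2-3p. The lowest value among the tested members was 0.59, between miR-100-5p and miR-125b-2-3p.

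Mesenchymal or fibroblast markers went different ways. miR-214-3p, made with miR-199a from a transcript known from mesenchyme, was at 0 in all 8 libraries of days 0 and 4 and reached 31.9 and 19.6 CPM in female late libraries and 4.83 and 44.9 CPM in male ones. At days 19 to 23 it was at 4.13 and 20.8 CPM in the female line, with experiment 3 higher as for miR-99a-5p, and at 1.15 and 6.03 CPM in the male line. miR-199a-3p was at 119.5 and 660.4 CPM in the late male libraries and at 120.9 and 345.2 CPM at male day 0, again with the high value in experiment 3. Of all tested miRNAs, 24.1% were higher and 19.4% lower in late female cells, and 19.6% and 21.2% in late male cells. Of the 8 markers of this list in the tables, 6 were higher and 2 lower in late female cells, and 3 higher and 0 lower in late male cells. The list counts miR-199a-3p and miR-199b-3p as 2 markers, although their counts kept nearly the same proportion in every library. The higher ones in both lines include miR-214-3p, which passed the filter only through its later libraries, and no support is drawn from its change. The 2 lower in late female cells were miR-143-3p (-1.92, adjusted p = 0.0436) and miR-145a-5p (-1.22, 0.0498). In late male cells miR-199a-3p was not called (0.74, 0.5). At day 4, 1 was higher and 2 lower in the female line and 1 higher and 5 lower in the male line. Of all tested miRNAs at day 4, 24.5% were higher and 14.6% lower (female), and 25.1% and 18.3% (male). Over all libraries the summed level of the list ran from 5922 to 11100 CPM at day 0 and from 8912 to 17220 CPM late, with the highest value, 46150 CPM, at male day 10. In that library, of experiment 2, miR-21a-5p alone was at 44990 CPM, with miR-199a-3p at 26.96 and miR-214-3p at 0.2845 CPM. In the female day 0 library with 11100 CPM, miR-143-3p was at 8746 CPM. The sum in these libraries was thus mostly that of a single arm. The part of cells with such markers in the rise of the members was not tested, and more RNA per cell cannot be told apart from more cells of a type in bulk libraries.

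Defining markers of muscle, endoderm and blood stayed low. miR-122-5p (endoderm) was at 0 in 15 libraries, miR-1a-3p (muscle) reached at most 1.002 CPM and miR-451a (blood) at most 1.44 CPM. miR-124-3p (neural) ran from 5.64 to 74.7 CPM, and its late changes were -0.33 in the female line (adjusted p = 0.689) and -2.24 in the male line (adjusted p = 0.0111). Summed levels of these lists over all libraries ran from 0.548 to 72.0 CPM for muscle, 313.1 to 3623 for endoderm, 6.34 to 682.3 for blood and 997.1 to 2854 for neural markers. Of all tested miRNAs, 24.1% were higher and 19.4% lower in late female cells, and 19.6% and 21.2% in late male cells. In late cells 1 of 2 tested muscle markers was higher in each line, and 2 of 2 endoderm and 2 of 4 blood markers were lower. Of 6 neural markers 1 was higher in late female cells, while late male cells had 2 higher and 2 lower. Their part in the members' changes was not tested.

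**Figure D5:**
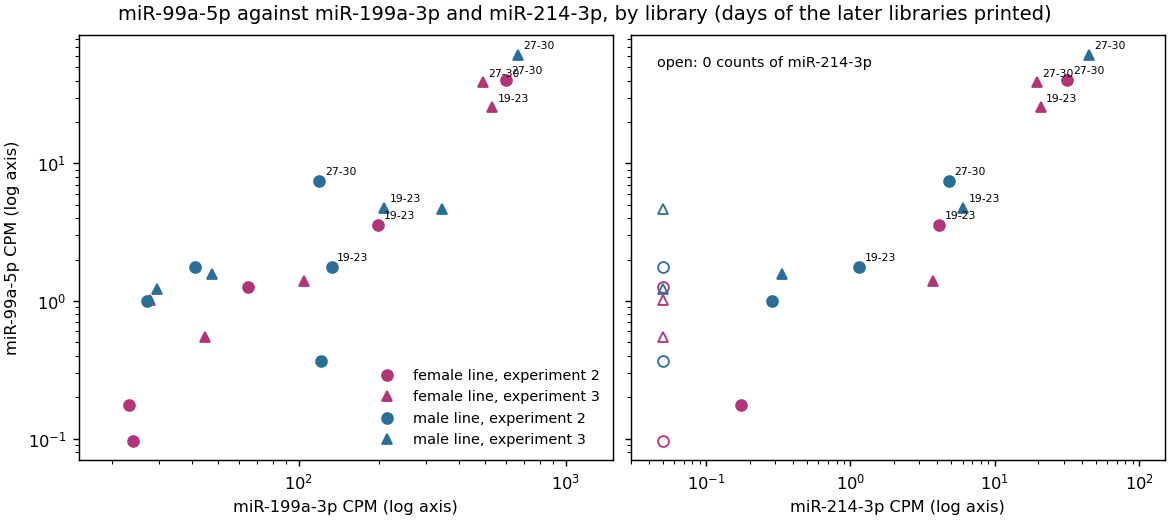
miR-99a-5p against miR-199a-3p (left) and miR-214-3p (right) in each library, all in TMM-scaled CPM on log axes. Colours give the line, circles experiment 2 and triangles experiment 3, and days are printed at the later libraries. The late male library of experiment 3 has 61.9 CPM of miR-99a-5p with 660.4 CPM of miR-199a-3p and 44.9 CPM of miR-214-3p, against 7.49, 119.5 and 4.83 CPM in experiment 2, and open symbols mark the 8 libraries with 0 counts of miR-214-3p.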

How the data were processed

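Small RNA libraries of 20 samples were used as the authors' deposited raw count tables, 1 per line, with a whole-number count per miRNA and library. The submitters' processing notes list GRCm38 and mm10 as builds, with CASAVA 1.8.2 and DESeq2 as tools. Which aligner was used, and how reads that match several genes were counted, is not given in the sources used here. In the tables, let-7a-1-3p and let-7c-2-3p, which share 1 sequence, have equal counts in 19 of 20 libraries (largest difference 2). If reads were counted once for each matching gene, miR-125b-5p, cut from 2 genes, was counted 2 times. Its level and its shares against other arms would then be too high, while its changes between stages would be little affected. Which rule was used was not tested. The authors' normalized tables were not used.

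The 1063 miRNAs in both tables (1091 male, 1109 female) were fitted together with edgeR 4.0.16 in R 4.3.3: 1 coefficient per line and stage, TMM factors (0.551 to 1.43), filterByExpr (813 kept) and quasi-likelihood F tests with 10 residual degrees of freedom and a common dispersion of 0.171. The SE is the log2 change over the root of F. Ratios used 0.5 added to each count and exact permutation tests in Python 3.11.15. Both kinds of test were tested on simulated data. The members, lists and naming rule were chosen with earlier results of these data known. Named were all members, their let-7 partners, the miR-99b cluster, miRNAs sharing a 5p seed, and the 3 miRNAs most like each 5p member. Marker lists were naive, primed, neural, mesenchymal or fibroblast, muscle, endoderm and blood.

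The alternatives tried were scaling by RLE or by total counts, leaving out the filter, keeping miRNAs averaging 10 CPM or more, the experiment number as a block, DESeq2 1.42.0, each line alone, each library left out, and 5 added to each count in ratios. The experiment name in the labels pairs libraries. Deviations from group means of libraries with the same number correlated at 0.13 to 0.554 across lines within a stage (5 pairs) and at -0.0998 to 0.403 across stages within a line (20 pairs). Sequences and positions are from RefSeq GRCm38.p6, host genes from GENCODE M21 by position.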

Additional observations from a re-analysis of the deposited data

How the results depend on the processing

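No member's called change turned direction under any alternative run. The number of members higher than day 0 at male day 10 was 1 with RLE scaling, total-count scaling or the line fitted alone, against 2. Of all miRNAs, 137 were higher there with RLE and 147 with total-count scaling, against 136. Shares of all miRNAs with DESeq2, the block or each line alone are not given here. At female days 21 and 23 the number of members was 5 with DESeq2, which added miR-125b-2-3p (2.96) and miR-99a-3p (5.17), against 3. DESeq2 also gave 6 in late female cells, against 5. At male days 19 and 21 it gave 4, against 3, and the added member was miR-100-3p, which had 0 counts at male day 0 and was not tested by edgeR. For the step from male day 4 to day 10 the number of members was 2 with DESeq2 and 0 with the line fitted alone, against 1. With the replicate block it was 2 at female day 10, against 1, and 2 for the male step from day 4 to day 10, against 1. It was also 4 with the block at female days 21 and 23, against 3, and 6 in late female cells, against 5. Total-count scaling also called miR-99a-3p at female days 21 and 23 (6.3). Leaving out the filter (2.53) or keeping miRNAs averaging 10 CPM or more (2.68) also called miR-100-5p in late female cells. The block changed 4 calls of members in all, each given beside its result, and no other. Leaving out each library in turn gave 0 to 1 members at female day 4, 1 to 4 at female days 21 and 23, 3 to 4 in late female cells, 1 to 2 at male day 10, 0 to 2 at male days 19 and 21, 1 to 6 in late male cells and 0 to 1 for the male step from day 4 to day 10. The 16 ratio tests stayed without a call with 5 added to each count, without each library and with the replicate block, which was added after seeing the data. Counts of members left without miR-99a-3p, also chosen after seeing the data, are those in the text, and the counts here include it. Differences between the lines also stayed at 0 calls of members under every alternative run. Total-count scaling moved the median of all miRNAs to 0.42 in late female and 0.71 in late male cells, from 0.01 and 0.05, and the share of higher among all called miRNAs to 65.7% and 68.9%, from 55.4% and 48.0%, so the members' changes are read relative to that median. Depth limits miR-99a-3p and miR-100-3p, which had under 10 counts in 16 and 20 of the 20 libraries. With 2 libraries a group, the SEs of the members' late changes ran from 0.86 to 2.29.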
